A study of Homo sapiens with 16 samples.

Results

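The genes described here are 34 genes of sterol and fatty acid synthesis, taken as the rows of the deposited count table that carry their symbols, out of 25728 gene symbols in the table. They fall into 18 enzymes of the cholesterol branch, 5 genes that sense sterols or carry the response to them, 3 genes of lipid transport and phospholipid synthesis, and 8 enzymes of the fatty acid branch. RNA was sequenced from Kelly and LAN-1, human neuroblastoma cell lines that carry amplified MYCN, a transcription factor gene. Each line received GSK126 at 2 uM, an inhibitor of the histone methyltransferase EZH2, or the solvent DMSO, and was collected after 2 or 5 days, which gives 8 groups of 2 libraries and 16 libraries in all. The labels name no genetic change made in the laboratory and do not say that the duplicates came from separate cultures, so the p-values below measure the spread between these libraries, which may be technical. Each line is a single cell line grown in culture, and 2 lines are not a sample of neuroblastomas.

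Cells make cholesterol from acetyl-CoA through mevalonate, farnesyl diphosphate and squalene, and make palmitate from the same acetyl-CoA through malonyl-CoA. Both branches are controlled by the SREBP transcription factors, which are made as precursors in the membrane of the endoplasmic reticulum. SCAP escorts SREBP to the Golgi for cleavage when sterols are low, and the INSIG proteins hold the SCAP and SREBP complex back when sterols are high. SREBF2 encodes the form tied mainly to the cholesterol branch and SREBF1 the forms tied mainly to the fatty acid branch. EZH2 places the methyl marks on histone H3 that go with gene silencing.

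Promoter windows show what several of these genes have in common that the choice of genes did not use. RefSeq sequence on GRCh38.p14, from 250 bases before to 50 bases after an annotated start, was at hand for 30 of the 34 genes. The 7 windows below are shown because their genes carry the main differences in level: HMGCS1 at chr5:43313363-43313662 on the minus strand, DHCR7 at chr11:71448344-71448643 on the minus strand, LSS at chr21:46228725-46229024 on the minus strand, ACSS2 at chr20:34874739-34875038 on the plus strand, SCD at chr10:100346983-100347282 on the plus strand, SREBF2 at chr22:41832855-41833154 on the plus strand and INSIG1 at chr7:155297628-155297927 on the plus strand. Where RefSeq has more than 1 window the first listed is shown, and the second windows of HMGCS1, DHCR7 and ACSS2 hold 0 CCAAT. Each is written 5′ to 3′ on the strand of its gene, with capitals for CCAAT, the letters of the NF-Y box, and for TCACNCCAC, a form of the sterol regulatory element, on either strand (CCAAT on the other strand reads ATTGG).
HMGCS1: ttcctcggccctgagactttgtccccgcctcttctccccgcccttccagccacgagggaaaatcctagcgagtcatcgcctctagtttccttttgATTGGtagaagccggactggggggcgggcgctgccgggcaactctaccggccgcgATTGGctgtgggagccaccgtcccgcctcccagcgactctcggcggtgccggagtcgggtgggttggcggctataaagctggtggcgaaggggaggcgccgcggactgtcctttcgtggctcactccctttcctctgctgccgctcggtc
DHCR7: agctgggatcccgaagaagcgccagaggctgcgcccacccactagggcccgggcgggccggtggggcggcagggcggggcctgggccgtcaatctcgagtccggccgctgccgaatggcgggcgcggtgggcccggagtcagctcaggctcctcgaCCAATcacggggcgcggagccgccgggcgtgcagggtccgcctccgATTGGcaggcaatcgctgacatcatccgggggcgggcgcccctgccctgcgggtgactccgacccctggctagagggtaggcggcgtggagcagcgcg
LSS: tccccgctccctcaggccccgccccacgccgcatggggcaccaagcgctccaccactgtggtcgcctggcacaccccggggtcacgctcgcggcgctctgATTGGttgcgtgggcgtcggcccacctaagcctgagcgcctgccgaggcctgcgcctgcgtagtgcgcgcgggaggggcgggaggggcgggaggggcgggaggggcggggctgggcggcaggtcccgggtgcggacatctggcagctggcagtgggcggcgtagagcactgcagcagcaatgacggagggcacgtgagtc
ACSS2: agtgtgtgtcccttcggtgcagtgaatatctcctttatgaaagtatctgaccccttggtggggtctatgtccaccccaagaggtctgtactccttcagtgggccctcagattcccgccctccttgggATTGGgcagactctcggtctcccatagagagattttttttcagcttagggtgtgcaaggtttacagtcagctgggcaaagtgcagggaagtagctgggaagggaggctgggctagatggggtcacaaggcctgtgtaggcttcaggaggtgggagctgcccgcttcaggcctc
SCD: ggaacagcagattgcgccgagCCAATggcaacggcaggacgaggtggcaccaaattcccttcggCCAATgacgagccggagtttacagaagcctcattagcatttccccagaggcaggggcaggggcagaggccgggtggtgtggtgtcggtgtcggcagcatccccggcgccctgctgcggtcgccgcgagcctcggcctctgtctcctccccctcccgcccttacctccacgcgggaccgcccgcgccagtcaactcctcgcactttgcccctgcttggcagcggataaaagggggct
SREBF2: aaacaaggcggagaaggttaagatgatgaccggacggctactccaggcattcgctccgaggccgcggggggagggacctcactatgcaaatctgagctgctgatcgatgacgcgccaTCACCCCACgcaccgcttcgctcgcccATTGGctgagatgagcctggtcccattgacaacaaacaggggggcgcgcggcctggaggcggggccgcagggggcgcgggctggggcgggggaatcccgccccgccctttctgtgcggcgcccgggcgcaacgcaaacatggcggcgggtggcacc
INSIG1: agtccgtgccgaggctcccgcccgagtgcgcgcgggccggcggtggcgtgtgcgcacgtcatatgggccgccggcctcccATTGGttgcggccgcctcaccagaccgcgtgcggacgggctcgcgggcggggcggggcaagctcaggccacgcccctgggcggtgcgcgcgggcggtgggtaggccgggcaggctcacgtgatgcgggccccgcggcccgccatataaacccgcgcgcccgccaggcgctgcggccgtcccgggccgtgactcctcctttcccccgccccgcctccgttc

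Searched on both strands, CCAAT was present in at least 1 window of 23 of the 30 genes (76.7%), against 44% of 9024 tested genes with a window and 34.6% of all 35116 windows. The sterol element TCACNCCAC had a match in 1 of the 30 genes (3.33%, against 1.47% of the tested genes and 1.13% of all windows). That match is the TCACCCCAC of SREBF2, which starts 133 bases before the annotated start. CACGTG, an E-box, was found in 4 genes (13.3%, against 13.3% of the tested genes and 7.26% of windows), INSIG1, LSS, SC5D and SCAP. GGGCGG, the GC box, was found in 28 genes (93.3%, against 78.6% and 45.0%). Genes with several windows had more chances of a match, and these are matches of letters, not measured sites of binding.

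All 34 genes passed the filter on low counts, together with the other genes among the 11863 tested. The libraries held 912095 to 1666190 counts assigned to genes, which is shallow, so genes at a few CPM (counts scaled to a library total of 1e+06) carry wide errors. The neuroblastoma markers PHOX2A, HAND2, ISL1 and MYCN were present in every library. TH and DBH, enzymes of noradrenaline synthesis, were near 0 in LAN-1, with medians of 0.722 and 1.88 CPM against 209 and 634 CPM in Kelly. Markers of blood, liver, fat and glial cells were at or near 0, with PTPRC, CD3E, ALB, SERPINA1, ADIPOQ and S100B at a median of 0 CPM in both lines. The 5 mesenchymal markers were all detected, led by VIM, and their summed level moved with line and with treatment, so it is given beside the results below. The data are from bulk RNA, in which fewer cells of a kind and less RNA per cell cannot be told apart.

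In DMSO, LAN-1 held more RNA of most of the set than Kelly. In the 8 DMSO libraries, 26 of the 34 genes were higher in LAN-1 and 4 were lower at an adjusted p under 0.05 (edgeR's quasi-likelihood test with Benjamini-Hochberg adjustment over all tested genes, days averaged). The lines differ widely, and 67.7% of all tested genes passed this test, 33.5% higher and 34.2% lower in LAN-1. The median log2 difference was 1.19 over the 34 genes and -0.015 over all tested genes. The DMSO libraries of the lines did not overlap in CPM for 20 genes that were higher in LAN-1 and 4 that were lower, against 28.7% and 28.9% of all tested genes. The summed mesenchymal markers stood at 435 to 465 CPM in LAN-1 and 100 to 119 CPM in Kelly in the day 2 DMSO libraries, and at 336 to 394 CPM and 123 to 147 CPM at day 5. The markers did not all differ alike. Over all libraries of a line, VIM had a median of 408 CPM in LAN-1 and 120 CPM in Kelly, while COL1A1 had 2.17 and 33.9 CPM. COL3A1, PRRX1 and LUM were higher in LAN-1 but at medians of at most 13.2 CPM. The part of such differences between the lines in these values was not tested.

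In the cholesterol branch, 16 of the 18 enzymes were higher in LAN-1, with a median log2 difference of 1.5. ACAT2, which condenses acetyl-CoA units at the entry to the pathway, stood at 53.5, 64.3, 67.7 and 81.1 CPM in the Kelly libraries and at 319.6, 325, 359 and 365 CPM in the LAN-1 libraries. The lowest LAN-1 library was far above the highest Kelly library, and the log2 difference was 2.34 ± 0.089 (SE, n = 4 against 4; 5.07-fold, adjusted p = 1.4e-49). FDFT1, the squalene synthase that commits farnesyl diphosphate to sterols, was 4.24-fold higher (log2 2.08 ± 0.069, adjusted p = 3.99e-55). SC5D, which adds a late double bond to the sterol rings, was 4.58-fold higher. HMGCS1, the HMG-CoA synthase, was 3.51-fold higher and MSMO1, which takes part in removing the C4 methyl groups, 3.34-fold. The last enzyme of the branch, DHCR7, differed less, at 1.39-fold (adjusted p = 3.39e-05), and its libraries overlapped. Its Kelly DMSO libraries lay at 64.3, 78.6, 82.5 and 96.5 CPM and its LAN-1 DMSO libraries at 95.2, 109, 109.5 and 145 CPM. The exceptions were PMVK, phosphomevalonate kinase, which was lower in LAN-1 (0.585-fold, adjusted p = 0.000639), and CYP51A1, the lanosterol demethylase, with a log2 difference of 0.0715 ± 0.076 (95% interval -0.11 to 0.25, adjusted p = 0.411). ACAT2 shares 454 exonic bases with TCP1 on the other strand, and whether counting used strand is not given in the sources used here, so reads of such pairs cannot be told apart.

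The sensing genes were split, with genes higher and genes lower in LAN-1. INSIG1, which retains the SCAP and SREBP complex and is itself a well known SREBP target, was nearly absent from LAN-1. It had 867 counts over the 8 Kelly libraries of both treatments and 6 counts over the 8 LAN-1 libraries, of which 4 had none. In DMSO alone the counts were 398 against 5, a ratio of Kelly to LAN-1 of 78.9 after scaling by library size (95% interval 33.5 to 244, counting error only). INSIG2, its relative, was 3.42-fold higher in LAN-1 (adjusted p = 8.1e-10), at 4.30, 4.47, 10.3 and 11.2 CPM in Kelly and 21.0, 22.9, 25.0 and 25.9 CPM in LAN-1 DMSO libraries, which did not overlap. SCAP, the escort, was lower in LAN-1 at 0.542-fold (adjusted p = 1.15e-14). SREBF2 differed by a log2 value of 0.0238 ± 0.068 (95% interval -0.13 to 0.18, adjusted p = 0.767). SREBF1 was 1.17-fold higher at an adjusted p of 0.0465, a call that was not kept on leaving out any 1 of 5 DMSO libraries or in DESeq2 (0.164). Its log2 difference was 0.23, and 0.447 (edgeR adjusted p = 9.61e-06) when each library was corrected for transcript GC content. The INSIG1 promoter printed above is the reference sequence, and the genomes of the lines were not analysed here.

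All 3 transport and phospholipid genes were higher in LAN-1. LIPG, an endothelial lipase that acts on lipoprotein phospholipids, was 3.05-fold higher (adjusted p = 2.26e-06) and PCYT2, of the CDP-ethanolamine route to phosphatidylethanolamine, 2.02-fold (adjusted p = 9.27e-08). STARD4, a soluble sterol carrier, was 1.17-fold higher at an adjusted p of 0.036. That call was lost without any 1 of 4 DMSO libraries, in DESeq2 (0.137) and with the correction for transcript GC content (0.0921). The fatty acid branch was split, with 5 of 8 enzymes higher in LAN-1 and 1 lower. ACSS2, which makes acetyl-CoA from acetate, had 41 counts over the 4 Kelly DMSO libraries and 551 over the 4 LAN-1 DMSO libraries, a scaled ratio of 13.6 (95% interval 9.87 to 19.1, counting error only). The desaturases SCD, FADS1 and FADS2 were 2.39, 2.92 and 3.93-fold higher, and the elongase ELOVL6 1.28-fold (adjusted p = 0.00115). ACLY, which makes acetyl-CoA from citrate, went the other way from ACSS2, at 942, 1026, 1027 and 1128 CPM in Kelly and 650, 656, 658 and 696 CPM in LAN-1 (0.645-fold, adjusted p = 2.14e-18). ACACA, the acetyl-CoA carboxylase, had a log2 difference of -0.0292 ± 0.071 (95% interval -0.19 to 0.13, adjusted p = 0.726). FASN, the fatty acid synthase, had one of -0.0381 ± 0.067 (adjusted p = 0.626), which turned to 0.22 at an adjusted p of 1.02e-06 when each library was corrected for transcript GC content.

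**Figure D1:**
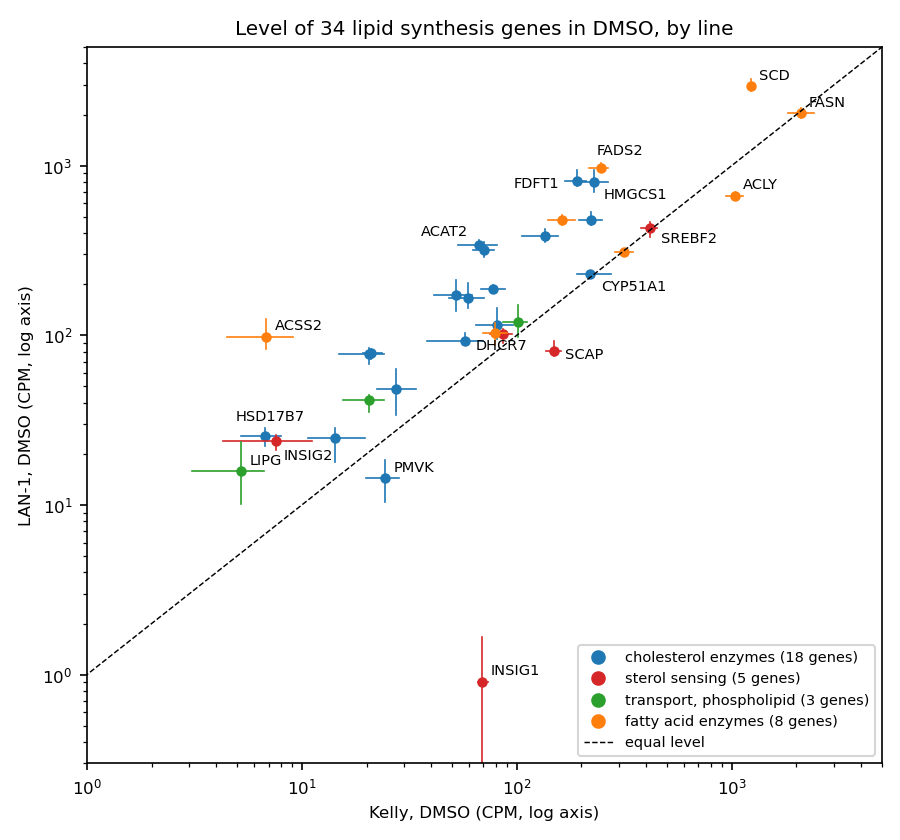
Mean CPM of each of the 34 genes in the 4 Kelly DMSO libraries (x axis, log scale) and the 4 LAN-1 DMSO libraries (y axis, log scale), with bars from the lowest to the highest library and the dashed line at equal level. Most cholesterol enzymes lie above the line, ACSS2 is the farthest above it, and INSIG1 lies far below it, its lower bar ending at the axis edge because 1 LAN-1 DMSO library had no count.

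Within a line, the levels per kilobase of annotated exon in DMSO were led by the fatty acid branch. The length used is the union of the exons of all annotated forms of a gene. It can exceed the length of the transcript in these cells, so the order of genes is approximate. SCD stood at 234 ± 7.28 CPM per kilobase in Kelly and 562 ± 44.1 in LAN-1 (SD, n = 4), and FASN followed at 225 ± 30.4 and 219 ± 12.3. In Kelly the spreads of SCD and FASN overlap, while in LAN-1 SCD lay above FASN beyond both spreads. ACLY came next in Kelly, whereas in LAN-1 FDFT1 came next at 159 ± 17.8 CPM per kilobase. LIPG was the lowest of the set in Kelly, and INSIG1 in LAN-1. ACSS2 was next to last in Kelly, at 1.30 ± 0.445, and stood at 18.7 ± 3.6 CPM per kilobase in LAN-1.

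The drug comparison asks whether inhibiting EZH2 changed these genes against DMSO. In LAN-1 at day 2, 9 of the 34 genes were higher with GSK126 and 0 were lower, against 0.152% of all tested genes, 18 genes and all of them higher. HMGCS1, IDI1, FDFT1, MSMO1, STARD4, LIPG, PCYT2, ACSS2 and SCD were the 9. At day 5, 14 of the 34 were higher and 0 lower, against 2.45% of all tested genes higher and 1.21% lower (3.66% in all). Both days called LIPG, PCYT2, ACSS2 and SCD, so that 19 genes rose on at least 1 day. The median log2 change over the 34 genes was 0.32 at day 2 and 0.31 at day 5, against 0 over all tested genes on each day. At day 2, both GSK126 libraries lay above both DMSO libraries for 28 of the 34 genes and below them for 1, against 18.2% and 17.8% of all tested genes. At day 5 this held for 24 and 1, against 22.7% and 21.5%. The 34 genes were chosen with earlier results of these data known. Shares over all tested genes, above and below, therefore describe the set and do not test it.

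The LAN-1 calls rest on few libraries. Leaving out 1 of the 4 libraries of a comparison moved the number called among the 34 genes. The number called among all tested genes moved in the same direction each time, so the moves are not particular to the 34 genes. The median log2 change of the 34 genes in these fits was 0.28 to 0.325 at day 2 and 0.26 to 0.358 at day 5. At day 2 the number of the 34 called fell with each library left out, and HMGCS1 and ACSS2 were called each time. At day 5 it rose without GSK126 replicate 1 and fell without each of the others, and LSS, DHCR7 and ACSS2 were called each time. DESeq2 called HMGCS1 and SCD at day 2, out of 2 genes in all, and 9 of the 34 genes at day 5, out of 154 in all. At day 5, 10 of the 34 had no adjusted value in DESeq2. Those 10 include MVK, MVD, LIPG and PCYT2, which edgeR called. The summed mesenchymal markers in LAN-1 were 435 to 465 CPM in DMSO and 488 to 517 CPM with GSK126 at day 2, and 336 to 394 and 444 to 445 CPM at day 5. The part of these markers in the results was not tested.

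Of the 18 cholesterol enzymes, 4 rose at day 2 and 5 others at day 5 in LAN-1. HMGCS1, the enzyme that makes HMG-CoA, stood at 704 and 737 CPM in DMSO against 1072 and 1047 CPM with GSK126 at day 2, and 805 and 943 CPM against 1052 and 936 CPM at day 5. Both day 2 GSK126 libraries were well above both DMSO libraries, and the log2 change was 0.56 ± 0.084 (SE, n = 2 against 2; 1.47-fold, adjusted p = 1.15e-05). At day 5 the groups overlapped, with DMSO replicate 2 above GSK126 replicate 2, and the change was 0.19 ± 0.084 (adjusted p = 0.211). IDI1, the isomerase that makes the building block dimethylallyl diphosphate, stood at 145 and 145 CPM in DMSO against 234 and 202 CPM with GSK126 at day 2, and 174 and 204 CPM against 178 and 175 CPM at day 5. It rose at day 2 by 0.59 ± 0.12 (SE, n = 2 against 2; 1.51-fold, adjusted p = 0.0024) and at day 5 its libraries overlapped (log2 -0.0876 ± 0.12, adjusted p = 0.788). The day 2 call was lost without DMSO replicate 1, DMSO replicate 2 or GSK126 replicate 1, up to an adjusted p of 0.444. IDI1 shares 643 exonic bases with the antisense gene IDI2-AS1.

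FDFT1 stood at 754 and 772 CPM in DMSO against 985 and 973 CPM with GSK126 at day 2, and 762 and 943 CPM against 985 and 1067 CPM at day 5. It rose at day 2 by 0.36 ± 0.084 (SE, n = 2 against 2; 1.28-fold, adjusted p = 0.0273), a call lost without any 1 of the 4 libraries, up to 0.489, and had an adjusted p of 0.0532 at day 5, though its libraries did not overlap on either day. MSMO1 stood at 138 and 165 CPM in DMSO against 271 and 202 CPM with GSK126 at day 2, and 176 and 211 CPM against 224 and 215 CPM at day 5. The day 2 GSK126 libraries were far apart but both above DMSO, and the change of 0.64 ± 0.12 (SE, n = 2 against 2; 1.56-fold, adjusted p = 0.0011) was lost without DMSO replicate 1 or GSK126 replicate 1 (adjusted p = 0.836 without the latter).

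The 5 enzymes called at day 5 were MVK, MVD, LSS, EBP and DHCR7. LSS, which closes squalene epoxide into lanosterol, stood at 380.1 and 355 CPM in DMSO against 477 and 448 CPM with GSK126 at day 2, and 380.1 and 421 CPM against 547 and 654 CPM at day 5. GSK126 libraries were above DMSO libraries on both days, and the log2 change was 0.33 ± 0.10 at day 2 (adjusted p = 0.203) and 0.58 ± 0.094 (SE, n = 2 against 2; 1.49-fold, adjusted p = 5.83e-06) at day 5. DHCR7, which reduces 7-dehydrocholesterol to cholesterol, stood at 109.5 and 95.2 CPM in DMSO against 142 and 148 CPM with GSK126 at day 2, and 109 and 145 CPM against 193 and 249.8 CPM at day 5. Its groups did not overlap on either day, and the change was 0.50 ± 0.14 at day 2 (adjusted p = 0.159) and 0.79 ± 0.13 (SE, n = 2 against 2; 1.73-fold, adjusted p = 7.37e-06) at day 5. Its day 5 GSK126 libraries were far apart, and the largest adjusted p on leaving out 1 of the 4 libraries was 0.0419.

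MVK and MVD phosphorylate and decarboxylate mevalonate intermediates. MVK stood at 79.0 and 68.2 CPM in DMSO against 96.5 and 97.7 CPM with GSK126 at day 2, and 84.5 and 78.5 CPM against 112 and 141 CPM at day 5. MVD stood at 48.4 and 33.8 CPM in DMSO against 62.5 and 72.3 CPM with GSK126 at day 2, and 47.8 and 63.5 CPM against 79.3 and 135 CPM at day 5. Both lay above the DMSO libraries of the same day in all 4 GSK126 libraries, and the day 5 changes were 0.61 ± 0.15 (SE, n = 2 against 2; 1.52-fold, adjusted p = 0.00741) for MVK and 0.90 ± 0.18 (SE, n = 2 against 2; 1.86-fold, adjusted p = 0.000481) for MVD. EBP, the sterol isomerase, stood at 104 and 87.1 CPM in DMSO against 118 and 122 CPM with GSK126 at day 2, and 90.7 and 90.2 CPM against 124 and 156 CPM at day 5. Its day 5 change was 0.6 ± 0.15 (SE, n = 2 against 2; 1.52-fold, adjusted p = 0.00565). These 3 calls were each lost without GSK126 replicate 2 and without DMSO replicate 1, with adjusted p up to 0.193 for MVK, 0.214 for MVD and 0.155 for EBP, and those of MVK and EBP also without DMSO replicate 2. The 9 enzymes not called on either day were ACAT2, PMVK, FDPS, SQLE, CYP51A1, TM7SF2, NSDHL, HSD17B7 and SC5D, with adjusted p from 0.0745 (FDPS, day 5) up. PMVK, the enzyme between MVK and MVD, had log2 values of -0.28 ± 0.35 at day 2 and 0.31 ± 0.34 at day 5, with adjusted p of 0.952 and 0.713. MVK shares 225 exonic bases with its neighbour MMAB on the other strand.

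Among the sensing genes, SREBF2 alone was called in LAN-1, at day 5. It stood at 443 and 378 CPM in DMSO against 447 and 517 CPM with GSK126 at day 2, and 417 and 468 CPM against 515 and 627 CPM at day 5. The GSK126 libraries were above the DMSO libraries on both days, and the day 5 change was 0.36 ± 0.10 (SE, n = 2 against 2; 1.28-fold, adjusted p = 0.0142), lost without DMSO replicate 1 (adjusted p = 0.337) or GSK126 replicate 2. SREBF1 had a log2 change of 0.0917 ± 0.15 at day 2 and 0.41 ± 0.14 at day 5 (adjusted p = 0.972 and 0.0939). INSIG2 had -0.0275 ± 0.27 and -0.0316 ± 0.28 and SCAP -0.14 ± 0.15 and 0.19 ± 0.16, with overlapping libraries throughout. INSIG1 had 2 and 0 counts in the day 2 DMSO libraries, 1 and 2 in the day 5 DMSO libraries, and 0, 0, 1 and 0 in the GSK126 libraries, too few for a fold change.

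All 3 transport and phospholipid genes rose in LAN-1 at day 2. LIPG stood at 13.4 and 10.1 CPM in DMSO against 49.5 and 22.3 CPM with GSK126 at day 2, and 16.6 and 23.4 CPM against 38.3 and 47.1 CPM at day 5. GSK126 libraries were above DMSO libraries on both days, with changes of 1.59 ± 0.29 (SE, n = 2 against 2; 3-fold, adjusted p = 0.000911) at day 2 and 1.08 ± 0.27 (SE, n = 2 against 2; 2.12-fold, adjusted p = 0.00618) at day 5. LIPG had at most 61 counts in a library, its day 2 GSK126 libraries differed by more than their DMSO counterparts, and the day 2 call was lost without DMSO replicate 2 or GSK126 replicate 1 (adjusted p = 0.979 without the latter) and the day 5 call without DMSO replicate 1 (0.244) or GSK126 replicate 2. PCYT2 stood at 43.9 and 35.1 CPM in DMSO against 55.2 and 84.6 CPM with GSK126 at day 2, and 42.2 and 44.3 CPM against 68.9 and 66.8 CPM at day 5. Its groups did not overlap on either day, and the changes were 0.82 ± 0.19 (SE, n = 2 against 2; 1.77-fold, adjusted p = 0.0215) and 0.66 ± 0.2 (SE, n = 2 against 2; 1.57-fold, adjusted p = 0.037). The PCYT2 calls were lost on leaving out any 1 of 3 libraries at day 2 (up to 0.89, without GSK126 replicate 2) and any 1 of 4 at day 5 (up to 0.27, without DMSO replicate 1), and its exons share 1948 bases with NPB on the other strand. STARD4 stood at 104 and 97.9 CPM in DMSO against 166 and 149 CPM with GSK126 at day 2, and 124 and 151 CPM against 157 and 153 CPM at day 5. It rose at day 2 by 0.64 ± 0.13 (SE, n = 2 against 2; 1.56-fold, adjusted p = 0.00448) and had 0.18 ± 0.13 at day 5 (adjusted p = 0.512), and the day 2 call was lost without DMSO replicate 1, DMSO replicate 2 or GSK126 replicate 1 (up to 0.382).

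In the fatty acid branch, 2 of 8 enzymes rose at day 2 and 6 of 8 at day 5 in LAN-1. ACSS2, low in Kelly, stood in LAN-1 at 86.0 and 83.0 CPM in DMSO against 148 and 144 CPM with GSK126 at day 2, and 99.7 and 125 CPM against 214 and 217 CPM at day 5. The GSK126 libraries were above every DMSO library of either day, and the changes were 0.79 ± 0.14 (SE, n = 2 against 2; 1.72-fold, adjusted p = 0.000637) at day 2 and 0.95 ± 0.13 (SE, n = 2 against 2; 1.93-fold, adjusted p = 2.71e-08) at day 5. SCD, which makes oleate and palmitoleate, stood at 2752 and 2783 CPM in DMSO against 3620 and 3515 CPM with GSK126 at day 2, and 3003 and 3251 CPM against 3771 and 3837 CPM at day 5. The replicates lay close together and the groups apart on both days, with changes of 0.37 ± 0.076 (SE, n = 2 against 2; 1.29-fold, adjusted p = 0.00502) and 0.28 ± 0.076 (SE, n = 2 against 2; 1.22-fold, adjusted p = 0.0143). The day 2 call of SCD was lost without any 1 of the 4 libraries (up to 0.261) and the day 5 call without DMSO replicate 1 (0.296).

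FASN, which builds palmitate from malonyl-CoA, stood at 2172 and 2014 CPM in DMSO against 2213 and 2369 CPM with GSK126 at day 2, and 2079 and 1901 CPM against 2609 and 3023 CPM at day 5. Its change was 0.13 ± 0.094 at day 2 (adjusted p = 0.898) and 0.50 ± 0.10 (SE, n = 2 against 2; 1.41-fold, adjusted p = 0.000541) at day 5. The day 5 GSK126 libraries were far apart, and the adjusted p was 0.373 without GSK126 replicate 2, the higher of them, with the call also lost without GSK126 replicate 1 or DMSO replicate 2. ACLY stood at 658 and 696 CPM in DMSO against 689 and 693 CPM with GSK126 at day 2, and 656 and 650 CPM against 778 and 847 CPM at day 5. It overlapped at day 2 and rose at day 5 by 0.31 ± 0.086 (SE, n = 2 against 2; 1.24-fold, adjusted p = 0.0187), lost without DMSO replicate 1, DMSO replicate 2 (0.158) or GSK126 replicate 2. FADS1 and FADS2, neighbours on chromosome 11 that desaturate polyunsaturated fatty acids, were both called at day 5. FADS1 stood at 446 and 508 CPM in DMSO against 547 and 546 CPM with GSK126 at day 2, and 448 and 498 CPM against 596 and 614 CPM at day 5. FADS2 stood at 962 and 920.2 CPM in DMSO against 1057 and 1159 CPM with GSK126 at day 2, and 961 and 1041 CPM against 1165 and 1406 CPM at day 5. At day 5 the groups did not overlap for either gene, with changes of 0.36 ± 0.092 (SE, n = 2 against 2; 1.28-fold, adjusted p = 0.0104) for FADS1 and 0.36 ± 0.083 (SE, n = 2 against 2; 1.28-fold, adjusted p = 0.00377) for FADS2. Both day 5 calls were lost without DMSO replicate 1 (0.292 and 0.171) and that of FADS2 also without GSK126 replicate 2, and the pair share 490 exonic bases on opposite strands. ACACA had changes of 0.17 ± 0.1 and 0.22 ± 0.1 and ELOVL6 of 0.22 ± 0.14 and -0.0671 ± 0.14, with adjusted p from 0.252 to 0.874.

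**Figure D2:**
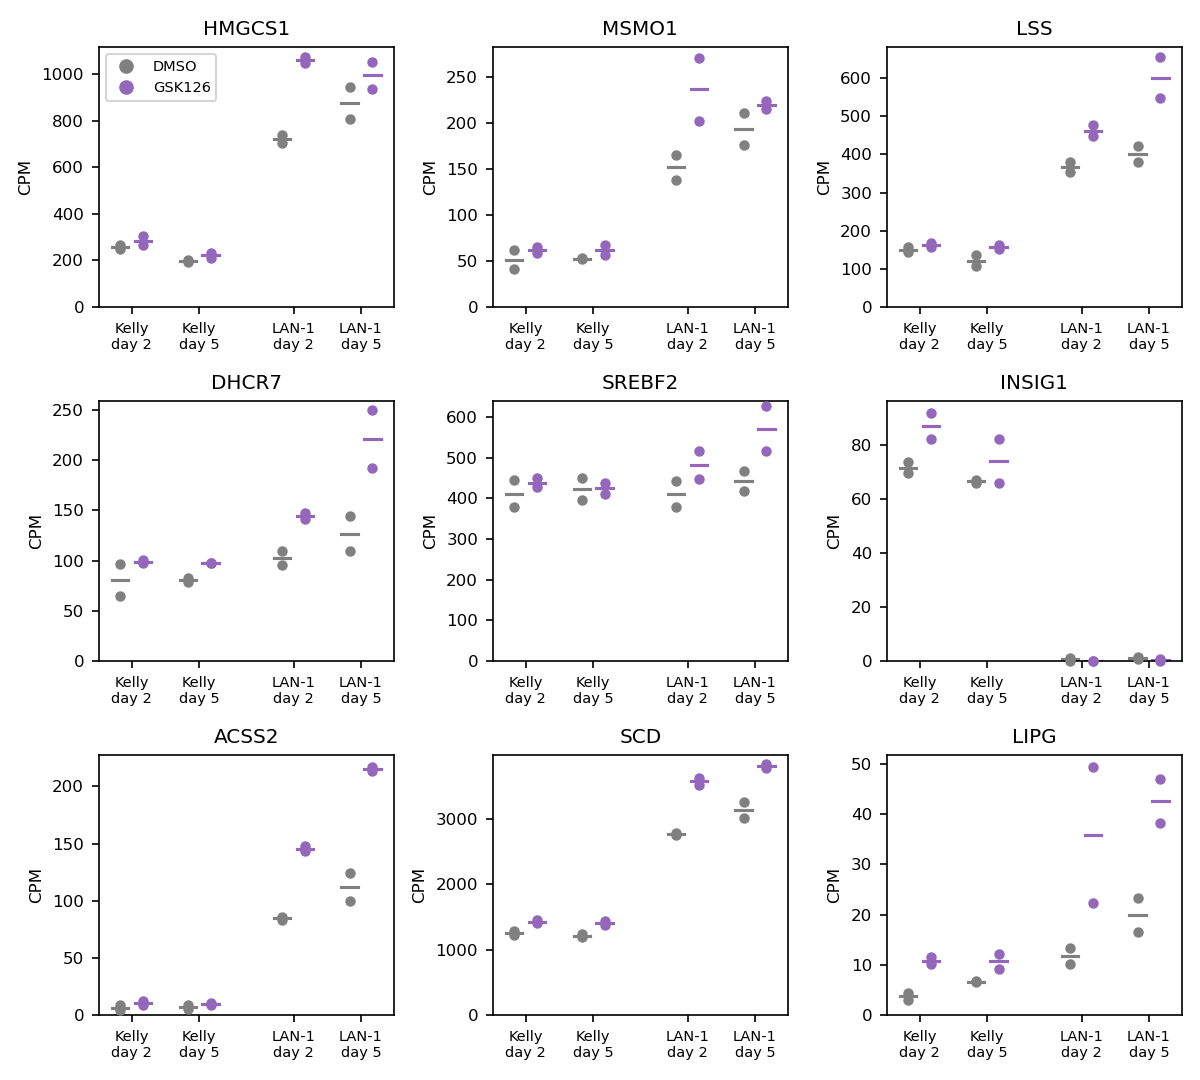
CPM of 9 genes (y axis from 0, one panel per gene) in each of the 16 libraries, by line and day (x axis), with grey points for DMSO, purple points for GSK126 and bars for the mean of each pair. HMGCS1, ACSS2, SCD and LSS are higher in every LAN-1 library than in any Kelly library, the GSK126 points of ACSS2 and SCD in LAN-1 lie above the DMSO points on both days, and INSIG1 is at or near 0 in LAN-1.

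The day 5 changes in LAN-1 moved with the GC content of the transcripts. Across 11695 genes the log2 change had a Spearman correlation of 0.396 with GC content, and across the 34 genes of 0.662, as a description over genes that share the same 4 libraries. At day 2 the values were -0.0362 and -0.0958. The duplicate GSK126 libraries of day 5 themselves differed with GC content, at a Spearman correlation of 0.372 for replicate 2 minus replicate 1. The members called at day 5 had a median GC content of 57.6% and those not called 43.5%, against 44.3% and 54% at day 2.

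When a smooth trend on GC content was removed from each library, the day 5 correlations fell to 0.0276 over all genes and 0.129 over the 34, and the days shared more calls. The correction called 14 of the 34 at day 2 and 17 at day 5, all higher, with 0.303% and 3.11% of all tested genes called. Of the 14 genes called at day 5 without it, 12 kept their call, while SREBF2 (adjusted p = 0.0726) and PCYT2 (0.202) lost it. HMGCS1, FDFT1, CYP51A1, MSMO1 and STARD4 gained one, led by HMGCS1 with a corrected log2 change of 0.37 ± 0.066 (adjusted p = 2.66e-05). With the correction 11 genes were called on both days, HMGCS1, MVD, FDFT1, LSS, MSMO1, DHCR7, STARD4, LIPG, ACSS2, SCD and FADS2. FASN went from 0.50 to 0.27 ± 0.06 and stayed called (adjusted p = 0.00133). ACSS2 and DHCR7 kept most of their size, at 0.87 ± 0.12 and 0.65 ± 0.11.

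**Figure D3:**
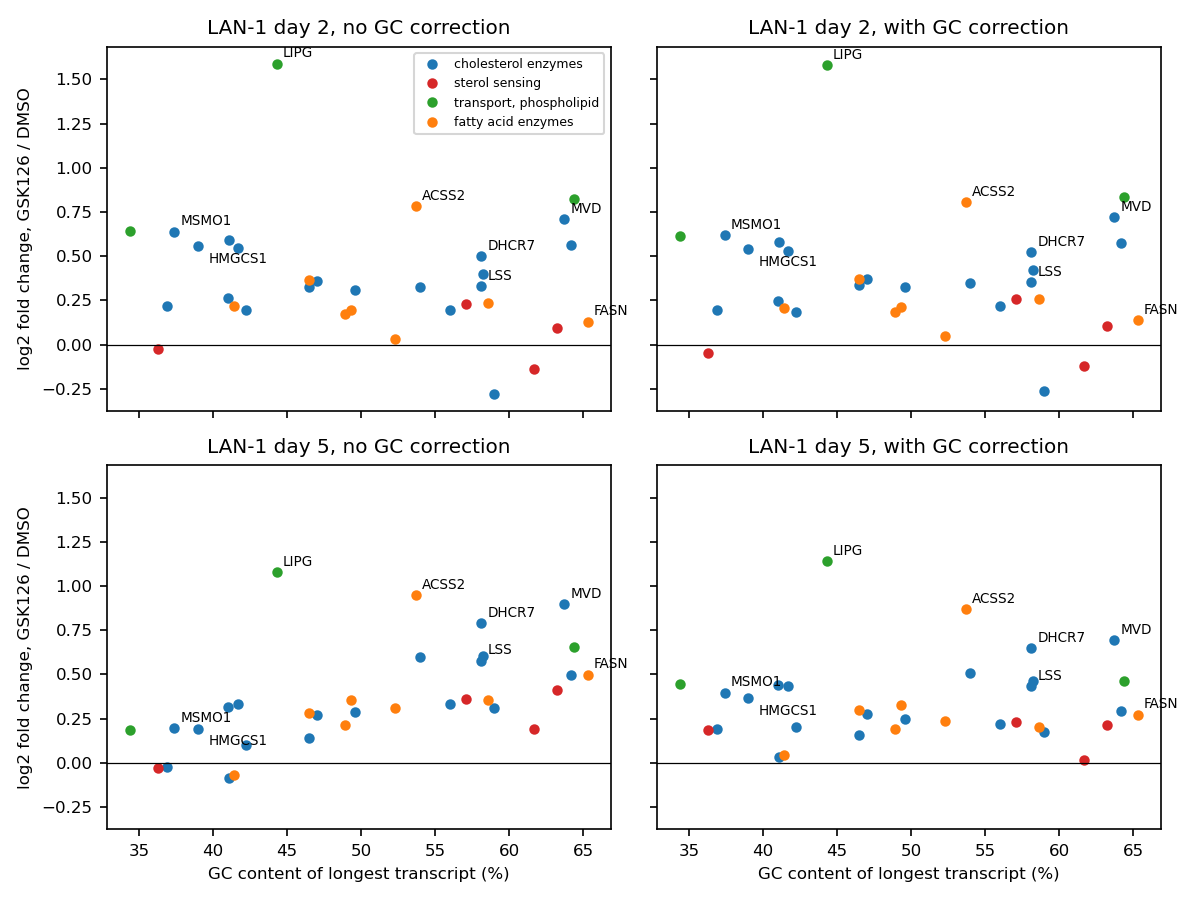
Log2 fold change of GSK126 over DMSO in LAN-1 (y axis) against the GC content of each gene's longest transcript in percent (x axis) for the 34 genes other than INSIG1, at day 2 (top) and day 5 (bottom), without (left) and with (right) correction of each library for GC content. Colours give the 4 groups of genes. The uncorrected day 5 panel slopes upward, from MSMO1 and HMGCS1 at low GC content to MVD and FASN at high GC content.

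Kelly showed little that passed the test. At day 2, 0 of the 34 genes were called, and 0.185% of all tested genes were (22 genes, 0.169% higher and 0.0169% lower). At an unadjusted p under 0.05, edgeR's quasi-likelihood test had 4 members higher and 0 lower and DESeq2 3 and 0, where edgeR had 4.57% higher and 2.91% lower of all tested genes. At day 5, FADS1 and FADS2 were higher and 0 genes lower, although more genes were called than in LAN-1, 4.9% of all tested (3.3% higher and 1.6% lower). FADS1 stood at 186 and 154 CPM in DMSO against 195 and 190.3 CPM with GSK126 at day 2, and 139 and 172 CPM against 212 and 194 CPM at day 5. FADS2 stood at 245 and 266 CPM in DMSO against 292 and 281 CPM with GSK126 at day 2, and 216 and 256 CPM against 298 and 298 CPM at day 5. The day 5 groups did not overlap for either gene, with changes of 0.37 ± 0.12 (SE, n = 2 against 2; 1.29-fold, adjusted p = 0.04) and 0.33 ± 0.1 (SE, n = 2 against 2; 1.26-fold, adjusted p = 0.0444). Both calls were lost without day 5 DMSO replicate 1, GSK126 replicate 1 or GSK126 replicate 2. They were also lost without either day 2 GSK126 library of Kelly or of LAN-1, left out singly, which are not part of this comparison. DESeq2 called 0 of the 34, out of 163 genes in all, and FADS1 had an adjusted p of 0.0522 in edgeR with the replicate number as a block. With the GC correction LSS (0.0111) and SCD (0.0268) were called as well. The summed mesenchymal markers went from 123 to 147 CPM in DMSO to 372 to 397 CPM with GSK126 at day 5 in Kelly. The sum of 7 noradrenergic markers stood at 5310 to 5390 CPM and 3600 CPM. That sum includes MYCN, which had a median of 2550 CPM over the Kelly libraries. In LAN-1 at day 5 it stood at 3030 to 3050 CPM in DMSO and 3000 to 3380 CPM with GSK126. The part of these markers in the values of the 34 genes was not tested.

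The signs in Kelly leaned the same way as in LAN-1. At day 2, 26 of the 34 log2 changes were positive and at day 5 24, against 50.8% and 51.2% of all tested genes, with medians of 0.12 and 0.18. GSK126 libraries lay above DMSO libraries for 14 members at day 2 and 17 at day 5, and below for 1 on each day, where 19.4% and 24.2% of all tested genes lay above and 17.3% and 22.5% below. For the cholesterol enzymes, the median change of each GSK126 library against its DMSO mean was 0.13 and 0.13 at day 2 and 0.23 and 0.21 at day 5, compared with 0.37 and 0.35 and 0.26 and 0.31 in LAN-1. For the fatty acid enzymes it was 0.15 and 0.13 and 0.14 and 0.17 in Kelly, and 0.22 and 0.19 and 0.26 and 0.38 in LAN-1. Every one of these library medians was above 0. The single DMSO libraries lay on either side of 0 by construction. In Kelly they stood for the fatty acid enzymes at -0.0641 and 0.0641 at day 2 and -0.119 and 0.119 at day 5, the latter near the GSK126 values. For the cholesterol enzymes they stood at -0.0546 and 0.0546 and at -0.046 and 0.046. In LAN-1 the largest such value was 0.0783, for the cholesterol enzymes at day 5.

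In Kelly HMGCS1 stood at 267 and 251 CPM in DMSO against 264 and 305 CPM with GSK126 at day 2, and 191 and 203 CPM against 212 and 233 CPM at day 5. LSS stood at 145 and 156 CPM in DMSO against 156 and 168 CPM with GSK126 at day 2, and 106 and 135 CPM against 163 and 151 CPM at day 5. DHCR7 stood at 64.3 and 96.5 CPM in DMSO against 98.0 and 100.2 CPM with GSK126 at day 2, and 82.5 and 78.6 CPM against 97.8 and 98.0 CPM at day 5. For LSS and DHCR7 the GSK126 libraries were above the DMSO libraries on both days, with day 5 changes of 0.36 ± 0.13 (adjusted p = 0.0791) and 0.28 ± 0.15 (adjusted p = 0.357). At day 2 the closest libraries were nearly equal, at 156.1 CPM in DMSO and 156.4 CPM with GSK126 for LSS. For DHCR7 they were at 96.5 and 98.0 CPM. FDFT1 stood at 195 and 210.2 CPM in DMSO against 207 and 233 CPM with GSK126 at day 2, and 168 and 186 CPM against 205 and 197 CPM at day 5. MSMO1 stood at 61.6 and 41.2 CPM in DMSO against 58.4 and 65.4 CPM with GSK126 at day 2, and 52.8 and 52.0 CPM against 67.6 and 56.2 CPM at day 5. IDI1 stood at 70.6 and 65.8 CPM in DMSO against 74.9 and 67.3 CPM with GSK126 at day 2, and 51.3 and 48.4 CPM against 45.6 and 56.2 CPM at day 5. Of these, FDFT1 and MSMO1 were apart at day 5 only and IDI1 overlapped on both days. MVK stood at 21.4 and 21.5 CPM in DMSO against 24.3 and 24.1 CPM with GSK126 at day 2, and 14.9 and 24.2 CPM against 17.1 and 16.0 CPM at day 5. MVD stood at 25.9 and 33.8 CPM in DMSO against 28.6 and 31.7 CPM with GSK126 at day 2, and 22.3 and 27.8 CPM against 20.4 and 22.8 CPM at day 5. EBP stood at 38.4 and 56.6 CPM in DMSO against 53.6 and 60.3 CPM with GSK126 at day 2, and 64.7 and 69.5 CPM against 69.3 and 55.4 CPM at day 5. These 3 had day 5 changes below 0 in Kelly, from -0.27 ± 0.3 for MVK to -0.11 ± 0.17 for EBP, with adjusted p from 0.727 to 0.818.

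SREBF2 in Kelly stood at 378 and 444 CPM in DMSO against 449 and 427 CPM with GSK126 at day 2, and 396 and 451 CPM against 438 and 412 CPM at day 5. Its groups overlapped on both days, and the day 5 change was 0.000464 ± 0.10. INSIG1, expressed in this line, stood at 69.7 and 73.8 CPM in DMSO against 91.9 and 82.5 CPM with GSK126 at day 2, and 66.2 and 67.1 CPM against 82.3 and 66.1 CPM at day 5. It was above DMSO in both day 2 GSK126 libraries, with a change of 0.28 ± 0.16 (adjusted p = 0.73), and overlapped at day 5. STARD4 stood at 106 and 86.7 CPM in DMSO against 107 and 117 CPM with GSK126 at day 2, and 112 and 102 CPM against 124 and 152 CPM at day 5. LIPG stood at 4.47 and 3.07 CPM in DMSO against 11.6 and 10.2 CPM with GSK126 at day 2, and 6.69 and 6.65 CPM against 12.2 and 9.11 CPM at day 5. PCYT2 stood at 24.1 and 24.0 CPM in DMSO against 26.8 and 20.9 CPM with GSK126 at day 2, and 15.6 and 18.7 CPM against 19.6 and 22.0 CPM at day 5. STARD4 and LIPG were above DMSO on both days, and the day 2 change of LIPG, 1.55 ± 0.49, was close to that in LAN-1 but rested on 5 to 19 counts a library (adjusted p = 0.263). The closest STARD4 libraries at day 2 were nearly equal, at 106.3 CPM in DMSO and 107.1 CPM with GSK126.

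In the fatty acid branch of Kelly, ACSS2 stood at 4.47 and 8.61 CPM in DMSO against 9.13 and 12.7 CPM with GSK126 at day 2, and 5.21 and 9.07 CPM against 10.6 and 9.11 CPM at day 5. SCD stood at 1220 and 1277 CPM in DMSO against 1403 and 1450 CPM with GSK126 at day 2, and 1185 and 1235 CPM against 1432 and 1369 CPM at day 5. Both genes had GSK126 libraries above DMSO libraries on both days, with SCD changes of 0.19 ± 0.079 and 0.21 ± 0.079 (adjusted p = 0.52 and 0.12). ACSS2 rested on only 5 to 20 counts a library, and at day 5 its closest libraries were at 9.07 CPM in DMSO and 9.11 CPM with GSK126. Its log2 changes were 0.648 at day 2 and 0.419 at day 5, and neither was called. FASN stood at 1818 and 2419 CPM in DMSO against 2291 and 2125 CPM with GSK126 at day 2, and 1896 and 2236 CPM against 2117 and 1804 CPM at day 5. ACLY stood at 1026 and 1128 CPM in DMSO against 1000 and 1035 CPM with GSK126 at day 2, and 942 and 1027 CPM against 932 and 917 CPM at day 5. FASN overlapped on both days, and ACLY was lower in both GSK126 libraries at day 5, by a log2 value of -0.0926 ± 0.081 (adjusted p = 0.634).

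**Figure D4:**
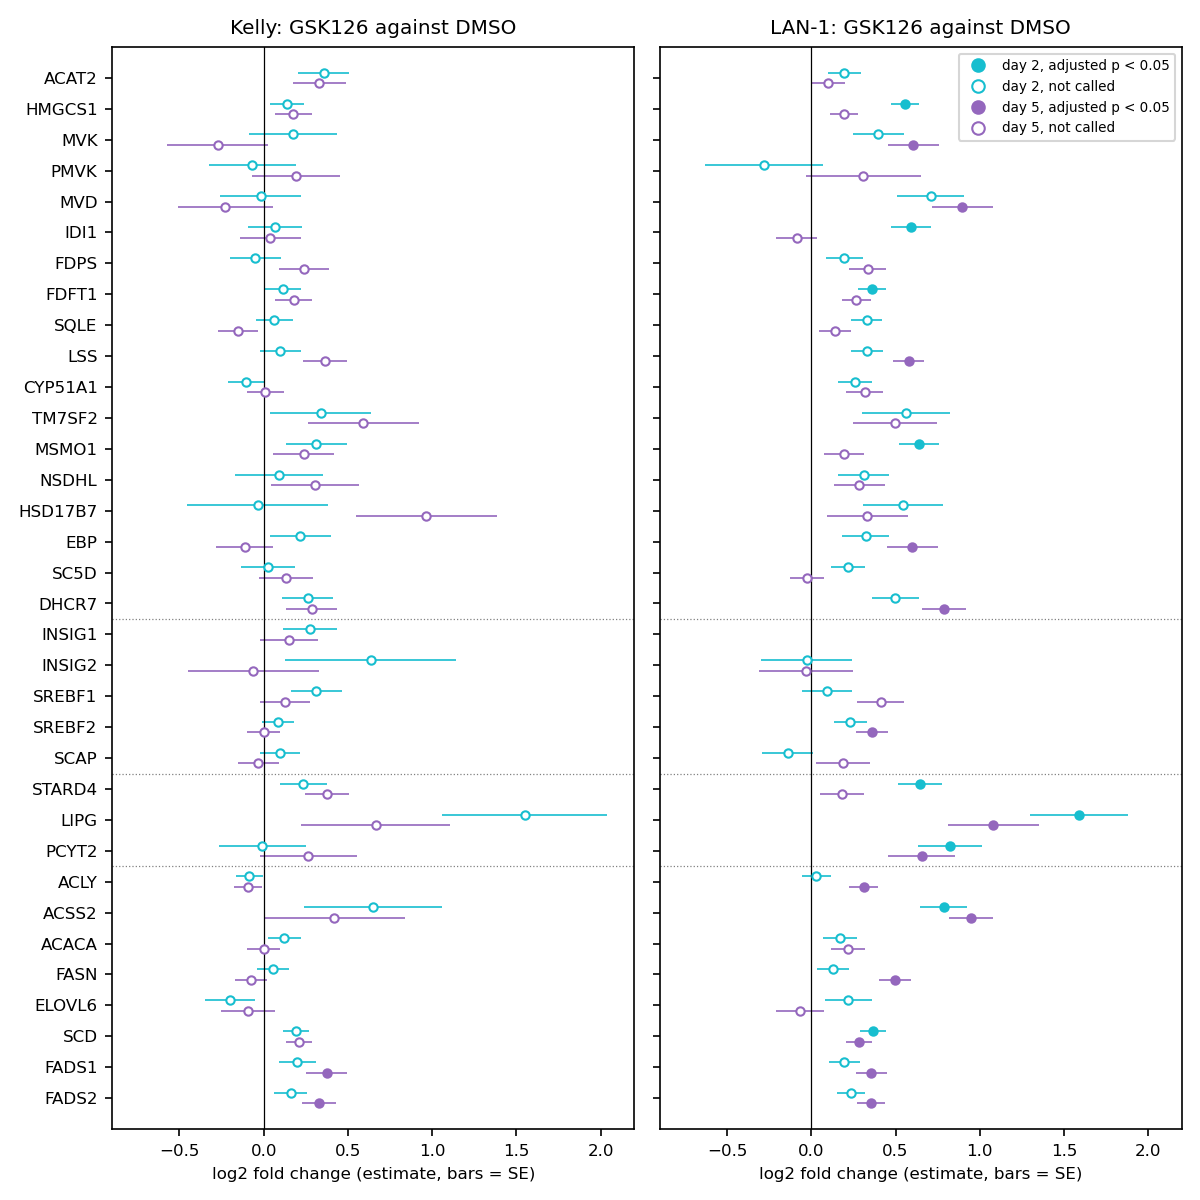
Log2 fold change of GSK126 over DMSO (x axis, points with bars of the SE) for each member (y axis, by group of genes) in Kelly (left) and LAN-1 (right), at day 2 (cyan) and day 5 (purple), with filled points where the adjusted p was under 0.05. INSIG1 is left out of the LAN-1 panel for lack of counts. Most points lie to the right of 0 in both lines, the filled ones are mainly in LAN-1, and the day 2 and day 5 points of HMGCS1, IDI1, MSMO1 and STARD4 in LAN-1 are apart, of which the difference between days was called for IDI1.

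Averaged over both lines and days, 18 of the 34 genes were higher with GSK126 and 0 lower, against 4.32% higher and 2.19% lower of all tested genes (6.52% in all), and 32 of the 34 means were positive (50.6% of all tested). They were 8 of the 18 cholesterol enzymes (ACAT2, HMGCS1, FDFT1, LSS, TM7SF2, MSMO1, EBP and DHCR7), the SREBP genes SREBF1 and SREBF2, all 3 transport and phospholipid genes, and FASN, SCD, ACSS2, FADS1 and FADS2. A call in the mean is not a rise in every comparison. EBP and FASN had changes of -0.114 and -0.0775 in Kelly at day 5, and PCYT2 of -0.00729 in Kelly at day 2. The others called were positive in all 4 comparisons. SCD had a mean log2 change of 0.26 ± 0.039 (adjusted p = 1.71e-07), DHCR7 of 0.46 ± 0.072 (9.38e-07), LSS of 0.34 ± 0.055 (1.5e-06), LIPG of 1.22 ± 0.19 (1.18e-06) and ACSS2 of 0.7 ± 0.15 (0.000908). These 5, with HMGCS1, FDFT1, MSMO1, STARD4, FADS1 and FADS2, stayed called on leaving out any 1 of the 16 libraries, and they are the 11 that DESeq2 called. The other 7 were each lost without at least 1 library, with the largest adjusted p at 0.0511 for ACAT2 without Kelly day 5 DMSO replicate 1 and 0.16 for EBP without Kelly day 5 GSK126 replicate 1. It was 0.0884 for PCYT2 and 0.0954 for SREBF2 without LAN-1 day 2 GSK126 replicate 2. Without LAN-1 day 5 GSK126 replicate 2 it was 0.0986 for TM7SF2, 0.166 for SREBF1 and 0.403 for FASN.

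The direction was shared by 16 members in all 4 line and day comparisons (47.1%), against 10.6% of all tested genes, and each comparison has its own DMSO libraries. In each of the 8 GSK126 libraries, 13 members were above the mean of their DMSO libraries, against 3.3% of all tested genes. As the members were chosen with earlier results of these data known, these shares do not test the set. The 13 were HMGCS1, FDFT1, LSS, TM7SF2, MSMO1, DHCR7, SREBF1, STARD4, LIPG, ACSS2, SCD, FADS1 and FADS2. ACAT2, NSDHL and SREBF2 were positive in the 4 comparisons but not in every library.

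Calls in LAN-1 and not in Kelly do not by themselves show that the lines differed, so the difference was tested. At day 2, 0 of the 34 differences between the lines passed the test (0.00843% of all tested genes did). At an unadjusted p under 0.05, edgeR had 7 higher in LAN-1 and 0 lower, and DESeq2 4 and 0, where edgeR had 2.25% higher and 2.97% lower of all tested genes. At day 5, FASN and ACLY were called, both with a larger change in LAN-1, against 0.919% of all tested genes with a larger and 0.927% with a smaller change (1.85% in all). The difference was 0.58 ± 0.13 on the log2 scale for FASN (95% interval 0.27 to 0.88, adjusted p = 0.00839) and 0.40 ± 0.12 for ACLY (95% interval 0.13 to 0.68, adjusted p = 0.0478). FASN was lost with the GC correction (0.0587), in DESeq2 (0.212) and without any 1 of 5 of the 8 day 5 libraries (Kelly DMSO or GSK126 replicate 2, LAN-1 DMSO replicate 2 or either LAN-1 GSK126 replicate), up to 0.441 without LAN-1 GSK126 replicate 2. ACLY was lost with the replicate block (0.063) and without any 1 of 6 libraries (Kelly DMSO replicate 2, either Kelly GSK126 replicate, either LAN-1 DMSO replicate or LAN-1 GSK126 replicate 2), up to 0.312 without Kelly DMSO replicate 2. MVD had a gap of 1.12 ± 0.33 (95% interval 0.35 to 1.89), at an adjusted p of 0.0542.

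Between the days, IDI1 in LAN-1 was called among the 34, with a GSK126 change at day 5 minus that at day 2 of log2 -0.68 ± 0.17 (95% interval -1.07 to -0.30, adjusted p = 0.023), where 0.539% of all tested genes differed. Leaving out any 1 of 5 of the 8 LAN-1 libraries (either day 2 DMSO replicate, day 5 DMSO replicate 2, day 2 GSK126 replicate 1 or day 5 GSK126 replicate 2) ended the call (up to 0.332 without day 2 GSK126 replicate 1), and IDI1 had no adjusted value in DESeq2. The IDI1 libraries in DMSO were at 145 and 145 CPM at day 2 and 174 and 204 CPM at day 5, while those with GSK126 were at 234 and 202 and 178 and 175 CPM. In Kelly 0 of the 34 differed between the days (0.379% of all tested genes), with 0 also at an unadjusted p under 0.05 in edgeR and in DESeq2, where edgeR had 3.64% higher and 3.91% lower of all tested genes. DMSO libraries alone gave 0 calls between day 5 and day 2 in either line (of all tested genes, 0.43% were called in Kelly, 0.236% higher and 0.194% lower, and 0.438% in LAN-1, 0.118% higher and 0.32% lower). At an unadjusted p under 0.05, edgeR had 2 members higher and 4 lower at day 5 in Kelly (DESeq2 2 and 4) and 10 higher and 0 lower in LAN-1 (DESeq2 7 and 0). Of all tested genes, edgeR had at that threshold 4.37% higher and 3.37% lower in Kelly and 3.44% higher and 3.92% lower in LAN-1. HMGCS1 in DMSO had a log2 change from day 2 to day 5 of -0.39 ± 0.11 in Kelly (adjusted p = 0.0713, or 0.0159 with the GC correction) and 0.28 ± 0.085 in LAN-1 (adjusted p = 0.174).

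Lists of neighbouring lipid pathways held 0 or 1 called gene in each of the 4 line and day comparisons, where 0.185% and 4.9% of all tested genes were called in Kelly and 0.152% and 3.66% in LAN-1 at days 2 and 5. With 9 to 21 tested genes a list, these counts do not set the lists apart from other genes. In the isoprenoid branch that leaves the pathway at farnesyl diphosphate, 0 of 11 tested genes were called in any of the 4 line and day comparisons, with median log2 changes from -0.31 (LAN-1 day 5) to 0.14 (LAN-1 day 2). Among the 9 genes that transport and cleave SREBP, 0 were called, and the medians ran from -0.0537 in Kelly at day 2 to 0.10 in LAN-1 at day 5. Among the 15 tested genes of fatty acid oxidation 0 were called, with medians from -0.0851 to 0.0827. In the 13 tested genes of sterol handling, NPC2, a carrier of cholesterol out of the lysosome, was called at day 5 in Kelly (adjusted p = 0.00526), on 2 counts in DMSO and 18 with GSK126. That is a scaled ratio of 10.6 (95% interval 2.54 to 94.3, counting error only), and the call was lost without DMSO replicate 2 (0.112) or GSK126 replicate 2 and in DESeq2 (0.144). In LAN-1 the NPC2 counts were 18 and 40 at day 5, a ratio of 2.5 (1.4 to 4.63). Of 20 tested glycerolipid and phospholipid genes, ETNK2, an ethanolamine kinase that feeds the route of PCYT2, was called at day 5 in Kelly (log2 1.64 ± 0.39, adjusted p = 0.00292), lost without DMSO replicate 2 or GSK126 replicate 2 (0.124) and in DESeq2 (0.143). Of 21 tested elongation and activation genes, SCD5, a second stearoyl-CoA desaturase, fell at day 5 in LAN-1, where SCD rose. It stood at 90.0 and 71.9 CPM in DMSO and 59.1 and 48.2 CPM with GSK126 (log2 -0.58 ± 0.18, adjusted p = 0.0448), a call lost without either DMSO library or without GSK126 replicate 2 (up to 0.491 without DMSO replicate 1), in DESeq2 (0.187) and without the filter on low counts (0.0579).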

How the data were processed

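RNA was measured in 16 libraries, 2 for each of 8 groups. The authors deposited 1 table of whole-number counts per gene symbol, not normalized; the submitters' processing notes name TopHat2, featureCounts and FastQC, and the build GRCh37 (hg19). Tool versions and the strand setting are not given in the sources used here. Samples were grouped by their labels. The 34 genes and the other gene lists were chosen with earlier results of these data known.

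Genes were kept with edgeR's filterByExpr at a minimum count of 10, which left 11863 of 25728, scaled by TMM (factors 0.9781 to 1.024) and fitted in edgeR 4.0.16 (R 4.3.3) with 8 group means and the robust quasi-likelihood test over all tested genes, at an adjusted p under 0.05. The fit had 8 residual degrees of freedom and a common biological coefficient of variation of 5.31%. The p-values of the test are smaller than the printed SE with only 8 degrees of freedom would give. Intervals beside log2 values were set from the SE with 8 degrees of freedom. They are therefore wider than the p-values imply, and the intervals and p-values do not rest on the same error model. CPM are counts scaled to a column total of 1e+06. Ratios of low counts have exact intervals. The fit was also run on simulated counts, drawn for every gene with the common dispersion and without a GC trend. That run does not cover the GC trends of the real libraries.

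Alternatives were DESeq2 1.42.0, DESeq2 size factors in edgeR, no filter, the replicate number as a block, a loess correction for transcript GC content with and without that block, and each library left out. Same-numbered libraries of different groups had correlations of their deviations from -0.088 to 0.067, so the numbers were not taken to pair them. GC content, gene lengths and overlaps come from GENCODE 44 lifted to GRCh37, and promoter sequences from RefSeq. Every member may be named, and values in every library are given for members called in at least 1 of the 4 GSK126 comparisons. Of the other lists, counts are given, and of the up to 4 genes a list that may be named, those with the smallest adjusted p at day 5 in either line, those called are named. The genes most like DHCR7 are the 5 non-members with the highest Pearson correlation of log2 CPM after removing each line's mean, of which 1 is not reported here.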

Additional observations from a re-analysis of the deposited data

Results flagged for a closer look

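The effect of GSK126 differed between groups for 3 members by the test of the difference itself. At day 5 the log2 change of FASN was larger in LAN-1 than in Kelly by 0.575 (adjusted p = 0.00839, edgeR), with 0.50 in LAN-1, where it was above DMSO in both libraries, and -0.0775 in Kelly, where the libraries overlapped. That of ACLY was larger in LAN-1 by 0.404 (adjusted p = 0.0478), with 0.31 in LAN-1 and -0.0926 in Kelly. In LAN-1 the change of IDI1 at day 5 minus that at day 2 was -0.681 (adjusted p = 0.023), with 0.59 at day 2 and -0.0876 at day 5. Each of the 3 was lost without at least 1 library, as given above.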

How the results depend on the processing

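With 2 libraries a group and at most 1666190 counts a library, counts of called members moved with the processing, while none of the gene values called here changed sign under the alternatives run. DESeq2 called 0 members at day 5 in Kelly (2 in edgeR), 2 at day 2 and 9 at day 5 in LAN-1 (9 and 14), 11 in the mean (18), 1 for the line difference at day 5 (2) and 0 for the LAN-1 day difference (1). Among all tested genes DESeq2 called 163, 2, 154, 289, 73 and 28 in these comparisons, and edgeR 581, 18, 434, 773, 219 and 64. Without the filter on low counts, Kelly at day 5 had 0, with 559 called among all genes of that fit. The GC correction gave 4 at day 5 in Kelly, 14 at day 2 in LAN-1 and 1 for the DMSO day difference in Kelly (0 without it). Among all tested genes it called 798, 36 and 107. With the GC correction and the replicate block together the member counts were 4, 14 and 1. The line difference at day 5 then had 1 and the LAN-1 day difference 0. Among all tested genes these 5 comparisons then had 774, 35, 98, 191 and 60 calls. The replicate block alone gave 1 in Kelly at day 5 and 1 for the line difference, with 525 and 194 called among all tested genes. It changed no other count of calls by over 1.5 times, and same-numbered libraries did not deviate together. FASN in LAN-1 against Kelly in DMSO, not called without a GC correction, had a log2 difference of 0.224 (adjusted p = 1.02e-06) with it and 0.226 (2.02e-06) with the block as well. Leaving out 1 of the 16 libraries at a time gave 0 to 4 at day 5 in Kelly, 3 to 11 at day 2 and 4 to 17 at day 5 in LAN-1, 13 to 19 in the mean, 0 to 5 for the line difference at day 5, 0 to 2 for the LAN-1 day difference, 0 to 1 for the DMSO day difference in either line and 28 to 30 for LAN-1 against Kelly. A lone library was then assumed to vary like the other groups. In the line and day comparisons of GSK126 with DMSO, the number called among all tested genes moved with the library left out as well. Where no cause is given above, the cause was not tested.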

Other observations

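Among the genes outside the set whose levels followed DHCR7 most closely over the 16 libraries, after each line's mean was removed, were ARHGEF2 (Pearson correlation of log2 CPM 0.91), KDM6B (0.901), EEF1A2 (0.894) and NEU1 (0.874). KDM6B encodes a demethylase of the histone mark that EZH2 places. Among the members, ACSS2 (0.899), SREBF2 (0.895), SCD (0.87) and FADS2 (0.865) came closest. These values describe likeness of pattern over libraries that share treatment, depth and GC trend, and carry no test.

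In the mean over lines and days, further genes of lipid metabolism were called, of which ACSL3, GPAM, AGPAT3 and SEC24D are named after their values were seen. NPC2 (log2 1.76 ± 0.32, edgeR adjusted p = 2.2e-05) and ETNK2 (1.11 ± 0.22, 0.000136) were higher with GSK126, and both stayed called on leaving out any 1 of the 16 libraries (up to 0.000259 and 0.00325) and in DESeq2 (0.00237 and 0.00956). ACSL3, which activates fatty acids (0.18 ± 0.057, 0.0332), and the glycerolipid enzymes GPAM (0.26 ± 0.075, 0.0202) and AGPAT3 (0.41 ± 0.12, 0.0239) were higher, and SEC24D, a coat component of the vesicles that leave the endoplasmic reticulum, was lower (-0.26 ± 0.082, 0.0392). None of these 4 was called in DESeq2. Each lost its edgeR call without some single libraries, up to 0.165 for ACSL3 without LAN-1 day 5 DMSO replicate 1, 0.0859 for GPAM without Kelly day 5 GSK126 replicate 2, 0.146 for AGPAT3 without Kelly day 2 GSK126 replicate 1 and 0.17 for SEC24D without LAN-1 day 2 GSK126 replicate 1. They are 1 of 21 elongation and activation genes, 3 of 20 glycerolipid genes, 1 of 13 sterol handling genes and 1 of 9 SREBP processing genes, where 6.52% of all tested genes were called in this mean.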
